A study of Mus musculus with 6 samples.

Results

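The Kupffer cell identity genes described here are Vsig4, Clec4f, Timd4, Cd5l, Marco, Cd163, Folr2, Spic, Id3 and Adgre1. They were taken by symbol from a count table of liver RNA, in which each of the 10 has 1 row among 32212 rows. All 10 passed a filter on low counts that 13867 rows passed. The table holds 6 libraries, 1 per liver, from 3 WT and 3 CgA-KO mice. All were male C57BL/6 animals of 2 yr on normal chow, and the labels name no other allele or agent. CgA-KO mice lack the product of Chga, the gene of the prohormone chromogranin A, and no deletion limited to a cell type is named. Chga itself had no counts in any of the libraries and cannot check the labels. The study sequenced these livers to see which genes differ with the genotype, and it labels Vsig4, Clec4f, Timd4, Marco, Cd5l and Adgre1 on a heat map drawn from the same libraries. For these genes the difference between genotypes is therefore not independent evidence.

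Kupffer cells are the resident macrophages of the liver. They sit inside the sinusoids, where they capture bacteria and complement-coated particles from portal blood, remove old red cells and recycle their iron. Their identity is set by the myeloid factor PU.1 together with signals from neighbouring endothelial, stellate and parenchymal cells, among them ligands of the TGF-beta, BMP and Notch pathways, and is held by factors such as LXR-alpha, ID3, SPIC and MAF family members. Embryonically seeded Kupffer cells carry TIM4, whereas macrophages that arrive from blood monocytes gain it slowly. Marco and Cd163 are not limited to Kupffer cells, and Adgre1 is transcribed in most mouse tissue macrophages. In bulk liver RNA, more cells of a type and more RNA per cell cannot be told apart.

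The libraries held between 10558616 counts (WT replicate 1) and 31087453 counts (WT replicate 2). Levels are given as CPM, counts scaled to a common library total after correction with trimmed mean of M values (TMM) factors, and 3 counts, taken as the lowest level that can be seen, were 0.0965 to 0.284 CPM. Markers of hepatocytes, the main cell of the labelled tissue, summed to 63028 to 103724 CPM in WT and 53579 to 92696 CPM in CgA-KO. The labels do not say whether livers were taken or processed in batches. WT replicate 1 and CgA-KO replicate 2 were the highest of their genotype for several of the genes below, and the log2 fold changes without them are given beside those genes.

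As a group the identity genes were higher in CgA-KO livers. Their summed counts were 2264, 2752 and 2901 in WT replicates 1, 2 and 3, and 27846, 39670 and 19664 in CgA-KO replicates 1, 2 and 3. On the CPM scale the sums were 203, 117 and 123 in WT and 1293, 1258 and 881 in CgA-KO, so the groups did not overlap. By the quasi-likelihood test of edgeR, 8 of the 10 genes rose at an adjusted p-value under 0.05 and none fell. The count of genes that fell was also 0 at an unadjusted p-value under 0.05, with DESeq2 and with limma-voom. Over all genes tested, 8.60% were called higher. Vsig4, Clec4f, Timd4, Cd5l, Folr2, Spic, Id3 and Adgre1 rose, while Marco and Cd163 did not pass the test. The same 8 genes had every CgA-KO library above every WT library, a pattern seen upward in 19.0% of all genes tested. The median log2 fold change over the 10 genes was 2.92, and that over all genes was -0.01. Without WT replicate 3 the count of identity genes called was 5, since Clec4f, Spic and Id3 missed the threshold. In that fit 276 of 14111 genes were called higher, against 1193 of 13867 with all libraries. Without both WT replicate 1 and CgA-KO replicate 2, 8 identity genes were called, beside 1507 of 13873 genes called higher. With 3 livers against 3, an exact permutation test of a single gene cannot give a p-value under 0.1.

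**Figure D1:**
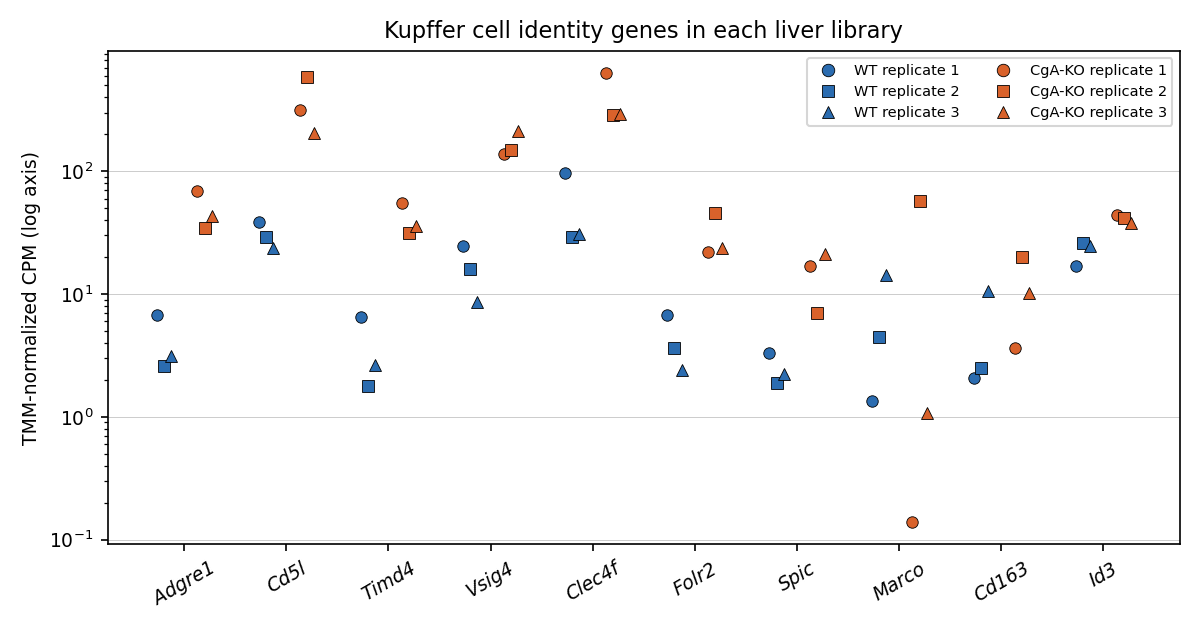
Level of each identity gene (TMM-normalized CPM, log axis) in the 3 WT (blue) and 3 CgA-KO (orange) libraries, with the marker shape giving the replicate number. The 8 genes that were called have all orange points above all blue points, while Marco runs from 0.139 to 57.4 CPM within CgA-KO.

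The first group of genes encodes surface receptors that bind complement, sugars and dying cells. Vsig4 (chrX:96247203-96293438, minus strand, GRCm38) encodes CRIg, the Kupffer cell receptor for the C3 fragments C3b and iC3b. Vsig4 was at 24.5, 16.0 and 8.68 CPM in WT replicates 1, 2 and 3 and at 138, 148 and 211 CPM in CgA-KO replicates 1, 2 and 3. The lowest CgA-KO library was far above the highest WT library, and the order of WT and CgA-KO replicates ran in opposite directions. Log2 of the fold change came to 3.35 with a standard error of 0.382 (edgeR adjusted p = 0.00322), a 10.2-fold rise, and it lay between 3.03 and 3.79 with any 1 library left out. The value of 3.79 was the one without WT replicate 1.

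Clec4f (chr6:83644542-83656187, minus strand) encodes a C-type lectin of Kupffer cells that binds galactose and N-acetylgalactosamine. Clec4f was at 96.1, 29.1 and 30.6 CPM in WT and at 629, 289 and 291 CPM in CgA-KO. Replicate 1 was the highest library in each genotype, and the groups did not overlap. CgA-KO exceeded WT by 2.96 on the log2 scale (standard error 0.541, adjusted p = 0.0122 by edgeR), a 7.79-fold rise. The edgeR call was lost without WT replicate 2 (adjusted p = 0.0792) and without WT replicate 3 (adjusted p = 0.0756). Without WT replicate 1 the log2 fold change was 3.79, and 3.99 without CgA-KO replicate 2 as well.

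Timd4 (chr11:46810800-46844332, plus strand) encodes TIM4, the phosphatidylserine receptor that marks long-lived resident macrophages. Timd4 was at 6.45, 1.79 and 2.63 CPM in WT and at 55.5, 31.4 and 36.0 CPM in CgA-KO. Again replicate 1 was the highest of each genotype and there was no overlap. In log2 units the difference, CgA-KO minus WT, was 3.57 (standard error 0.458, adjusted p = 0.00443 by edgeR), an 11.8-fold rise. Without WT replicate 1 the value for Timd4 was 4.24, and 4.41 without CgA-KO replicate 2 as well. Adgre1 (chr17:57358691-57483527, plus strand) encodes F4/80, the adhesion receptor used as the standard mouse macrophage marker. Its levels were 6.72, 2.60 and 3.13 CPM in WT and 68.7, 34.7 and 43.1 CPM in CgA-KO, in the same order over the libraries as those of Timd4. Adgre1 rose by 3.61 on the log2 scale (standard error 0.406, adjusted p = 0.00322 by edgeR), or by 4.12 without WT replicate 1. The log2 fold changes of Adgre1, Cd5l and Timd4 lay closer together than their standard errors.

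Folr2 (chr7:101839988-101857194, minus strand) encodes folate receptor beta, carried by resident macrophages of several tissues. Folr2 was at 6.72, 3.62 and 2.41 CPM in WT and at 22.0, 45.9 and 23.7 CPM in CgA-KO. CgA-KO replicate 2 was the highest library here, and the groups did not overlap. Log2 of the fold change came to 2.88 with a standard error of 0.426 (edgeR adjusted p = 0.00603), and the call was lost without WT replicate 2 (edgeR adjusted p = 0.0539). Without CgA-KO replicate 2 the value was 2.50, and without WT replicate 1 it was 3.38.

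Cd5l (chr3:87357881-87371073, plus strand) encodes AIM, a secreted scavenger receptor family protein that circulates with IgM and is a target of LXR. Cd5l was at 38.6, 29.2 and 23.8 CPM in WT and at 314, 583 and 206 CPM in CgA-KO. CgA-KO replicate 2 was the highest library, and all CgA-KO libraries were above all WT libraries. CgA-KO exceeded WT by 3.59 on the log2 scale (standard error 0.411, adjusted p = 0.00322 by edgeR), a 12.1-fold rise. Without CgA-KO replicate 2 the value was 3.13, and without WT replicate 1 it was 3.83.

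The scavenger receptors Marco and Cd163 varied most between livers of one genotype. Marco (chr1:120474538-120505024, minus strand) encodes a class A scavenger receptor for bacteria and particles. Marco had 15, 105 and 337 counts in WT and 3, 1810 and 24 counts in CgA-KO, or 1.34, 4.47 and 14.3 CPM against 0.139, 57.4 and 1.08 CPM. CgA-KO replicate 2 was the highest of all 6 libraries, and the other CgA-KO libraries were below all 3 WT libraries. In log2 units the difference, CgA-KO minus WT, was 1.52 (standard error 1.79, adjusted p = 0.632 by edgeR). Its sign turned with the fit. It was -0.89 with limma-voom, -3.43 without CgA-KO replicate 2 (adjusted p = 0.123 by edgeR), and -3.89 without CgA-KO replicate 2 and WT replicate 1, where the edgeR adjusted p-value was 0.0316. The standard deviation of log2 CPM among the CgA-KO livers was 4.22 for Marco, above that of 99.96% of the genes tested.

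Cd163 (chr6:124304656-124330527, plus strand) encodes the receptor that clears haptoglobin-haemoglobin complexes. Cd163 had 23, 59 and 248 counts in WT and 78, 627 and 229 in CgA-KO, or 2.06, 2.51 and 10.5 CPM against 3.62, 19.9 and 10.3 CPM. WT replicate 3 lay above CgA-KO replicates 1 and 3, so the groups overlapped. Log2 of the fold change came to 1.14 with a standard error of 0.708 (edgeR adjusted p = 0.324). It was 0.47 without CgA-KO replicate 2, 0.13 without WT replicate 1 as well, and 2.29 without WT replicate 3, and none of these passed the test. CgA-KO replicate 2, the highest library for both Marco and Cd163, was also the highest for neutrophil genes, whose sum was 382 CPM there against 62.2 and 49.1 CPM in CgA-KO replicates 1 and 3 and 6.90 to 12.6 CPM in WT. Monocyte genes summed to 252 CPM in CgA-KO replicate 2 against 41.9 and 64.3 CPM in the other CgA-KO libraries and 11.7 to 24.7 CPM in WT. The part of these cells in the Marco and Cd163 values was not tested. WT replicate 3, the highest WT library for both genes, had the lowest neutrophil and monocyte sums of all.

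Spic and Id3 encode transcription factors. Spic (chr10:88674772-88685015, minus strand) encodes an ETS family factor of red pulp macrophages and Kupffer cells that is induced by heme. Spic was at 3.31, 1.87 and 2.25 CPM in WT and at 16.8, 6.98 and 21.4 CPM in CgA-KO. CgA-KO replicate 2 was the lowest CgA-KO library here, in contrast to Folr2, Cd5l, Marco and Cd163, but still above the WT range. CgA-KO exceeded WT by 2.63 on the log2 scale (standard error 0.431, adjusted p = 0.00831 by edgeR), and the call was lost without WT replicate 3 (edgeR adjusted p = 0.0531). The log2 fold change of Spic was 2.90 without WT replicate 1 and 3.01 without CgA-KO replicate 2.

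Id3 (chr4:136143497-136145755, plus strand) encodes an inhibitor of basic helix-loop-helix factors that is a BMP target and is transcribed in many cell types besides Kupffer cells. Id3 was at 16.9, 25.9 and 24.6 CPM in WT and at 43.9, 41.6 and 37.7 CPM in CgA-KO. The CgA-KO livers lay close together and above all WT livers, and their standard deviation of log2 CPM, 0.111, exceeded that of 12.4% of the genes tested. Id3 rose by 0.86 on the log2 scale (standard error 0.198, adjusted p = 0.0246 by edgeR), a 1.82-fold rise and the smallest log2 fold change of the 10. The edgeR call was lost without WT replicate 3 (adjusted p = 0.0902), CgA-KO replicate 1 (adjusted p = 0.0735) or CgA-KO replicate 2 (adjusted p = 0.0549).

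**Figure D2:**
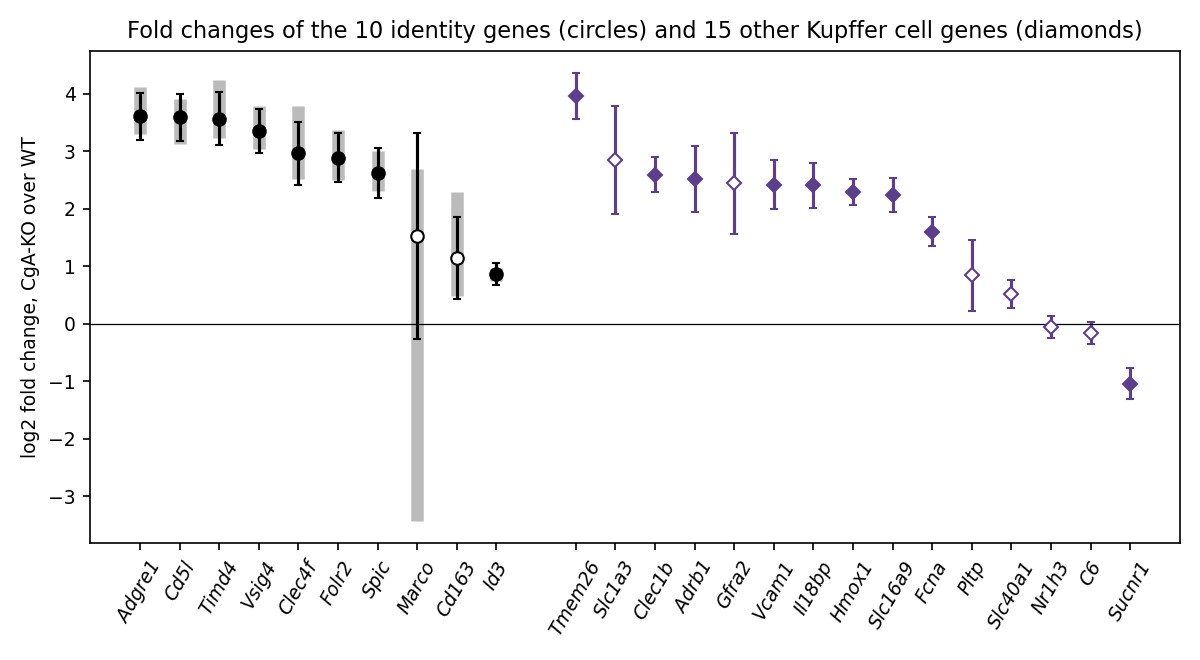
Log2 fold change (CgA-KO over WT) of the 10 identity genes (circles) and of 15 other Kupffer cell genes (diamonds), with standard errors from edgeR. Filled symbols passed an adjusted p-value of 0.05, and grey bars give the range with each library left out in turn, which for Marco runs from -3.43 to 2.69.

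Per kilobase of exon, the scale on which levels of different genes can be compared, Cd5l (181 ± 95.1, SD, n = 3), Clec4f (163 ± 79.3) and Vsig4 (112 ± 26.6 CPM per kb) led in CgA-KO livers. These leading genes did not differ from each other beyond their spread, while the gap from Vsig4 to the next gene, Id3, exceeded the SD of either. Id3 (22.9 ± 1.74), Folr2 (19.7 ± 8.63), Timd4 (18.9 ± 5.90) and Adgre1 (15.1 ± 5.47 CPM per kb) followed at levels within each other's spread, except that the Id3 and Adgre1 means lay further apart than either SD. Marco (10.1 ± 17.0), Spic (3.92 ± 1.92) and Cd163 (2.06 ± 1.50 CPM per kb) came last, each within the spread of its neighbour. In WT livers the order began with Clec4f (21.0 ± 15.5), Cd5l (15.0 ± 3.69), Id3 (12.5 ± 2.70) and Vsig4 (11.1 ± 5.35 CPM per kb), where each lay within the spread of its neighbour. Marco (3.48 ± 3.50), Folr2 (2.75 ± 1.44), Timd4 (1.67 ± 1.14), Adgre1 (1.28 ± 0.692), Cd163 (0.920 ± 0.870) and Spic (0.645 ± 0.195 CPM per kb) followed, again each within the spread of its neighbour, after a gap below Vsig4 that exceeded the SD of either side. Id3 made up 9.93% to 24.6% of the summed level per kilobase of the 10 genes in WT and 3.77% to 4.83% in CgA-KO.

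The promoters of the strongly raised genes are shown for what they share. The table of RefSeq promoters of GRCm38.p6, 250 bases before to 50 after a gene's start, held 10 promoters for 9 of the genes, since Folr2 has 2 starts, and none for Adgre1. Motifs were counted on both strands, and no match of one motif overlapped a match of another. The MAF motif TGCTGA was in the promoters of 6 of the 9 genes, namely Vsig4, Clec4f, Timd4, Cd5l, Folr2 and Spic. Counted by promoter, it was in 7 of the 10, beside 19.5% of all 32851 promoters. Marco, Cd163 and Id3 had no match. The ETS motif GAGGAA, read by PU.1 and SPIC, was in 4 of the 9 (Vsig4, Cd5l, Marco and Id3) and in 28.3% of all promoters. The RBPJ motif TGGGAA was in 2 genes (Marco and Clec4f) and in 25.6% of all promoters, and the nuclear receptor motif AGGTCA in 2 (Clec4f and Timd4) and in 16.3%. For the ETS, RBPJ and nuclear receptor motifs, the counts among the 10 promoters equalled those of genes. TGCTGA was singled out after its counts were seen, and a match is a description of letters, not a bound site. Below, capitals mark TGCTGA or its reverse complement, and each sequence runs 5′ to 3′ on the gene's own strand at chrX:96293389-96293688 (Vsig4, minus), chr6:83656067-83656366 (Clec4f, minus), chr11:46810549-46810848 (Timd4, plus) and chr3:87357631-87357930 (Cd5l, plus).
Vsig4 promoter: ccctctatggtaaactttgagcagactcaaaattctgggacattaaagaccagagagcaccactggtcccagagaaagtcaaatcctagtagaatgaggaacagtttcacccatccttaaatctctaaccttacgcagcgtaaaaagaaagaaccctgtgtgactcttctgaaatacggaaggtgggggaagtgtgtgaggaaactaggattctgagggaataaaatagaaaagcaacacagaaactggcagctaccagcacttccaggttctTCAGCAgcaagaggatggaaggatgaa
Clec4f promoter: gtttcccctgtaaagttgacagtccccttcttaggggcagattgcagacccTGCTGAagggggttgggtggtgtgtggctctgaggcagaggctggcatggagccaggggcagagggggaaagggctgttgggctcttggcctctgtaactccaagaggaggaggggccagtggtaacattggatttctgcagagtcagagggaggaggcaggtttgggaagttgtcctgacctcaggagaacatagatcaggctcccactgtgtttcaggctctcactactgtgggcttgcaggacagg
Timd4 promoter: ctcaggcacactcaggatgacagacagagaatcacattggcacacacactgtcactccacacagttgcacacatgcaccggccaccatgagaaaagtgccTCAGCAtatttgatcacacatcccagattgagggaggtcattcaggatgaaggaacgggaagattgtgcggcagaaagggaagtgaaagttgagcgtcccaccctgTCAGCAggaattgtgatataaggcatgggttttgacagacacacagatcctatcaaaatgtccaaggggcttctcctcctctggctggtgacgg
Cd5l promoter: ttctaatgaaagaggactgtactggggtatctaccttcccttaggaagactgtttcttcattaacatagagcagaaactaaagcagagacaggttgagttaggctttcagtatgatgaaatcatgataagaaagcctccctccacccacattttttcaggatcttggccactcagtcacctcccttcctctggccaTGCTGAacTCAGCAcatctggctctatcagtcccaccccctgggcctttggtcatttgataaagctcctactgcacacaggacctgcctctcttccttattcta

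Ratios of the genes to each other within a library do not depend on how libraries are scaled. For all 45 pairs, the log2 ratio of counts (with 0.5 added) was compared between genotypes. In 10 of the 45 pairs the WT and CgA-KO ratios did not overlap, against 37.0% of all pairs of genes tested and 31.6% of pairs of genes called higher. The share of pairs among the identity genes was below both backgrounds. The exact two-sided permutation p-value of each of the 10 pairs was 0.1, the smallest that 3 livers against 3 allow, or 0.45 after Benjamini-Hochberg adjustment over the pairs. Of the 10 pairs, 6 involved Id3. Relative to Id3, the log2 ratio was higher in CgA-KO by 2.54 for Vsig4, 2.20 for Clec4f, 2.77 for Timd4, 2.60 for Cd5l, 1.99 for Folr2 and 2.72 for Adgre1.

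The other pairs without overlap also had an exact permutation p-value of 0.1, so with this number of livers none of them could pass. Among them, Clec4f was lower in CgA-KO relative to Timd4 (log2 ratio 3.81 ± 0.248 in WT and 3.24 ± 0.247 in CgA-KO, SD, n = 3) and relative to Adgre1 (3.53 ± 0.279 and 3.00 ± 0.227). The margins were narrow: WT replicate 3 and CgA-KO replicate 1 had 3.53 and 3.50 against Timd4, and 3.28 and 3.20 against Adgre1. Spic was lower relative to Adgre1 by a log2 ratio of 1.13 on average (-0.65 ± 0.310 in WT and -1.78 ± 0.684 in CgA-KO). For this pair WT replicate 1 (-1.0096) and CgA-KO replicate 3 (-1.0098) were almost equal, and the separation depended on the 0.5 added to the counts. Cd5l was higher relative to Cd163 by 2.24. The ratio of Timd4 to Adgre1 moved least, from -0.28 ± 0.239 to -0.24 ± 0.0842, a difference of 0.05 with an exact permutation p-value of 0.9. Marco took part in no pair without overlap. Without CgA-KO replicate 2 the number of such pairs was 29, and without WT replicate 1 it was 20. With fewer libraries overlap is less likely by construction. The share over all pairs of genes was not computed for these settings, so the 2 counts cannot be compared with the backgrounds above.

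**Figure D3:**
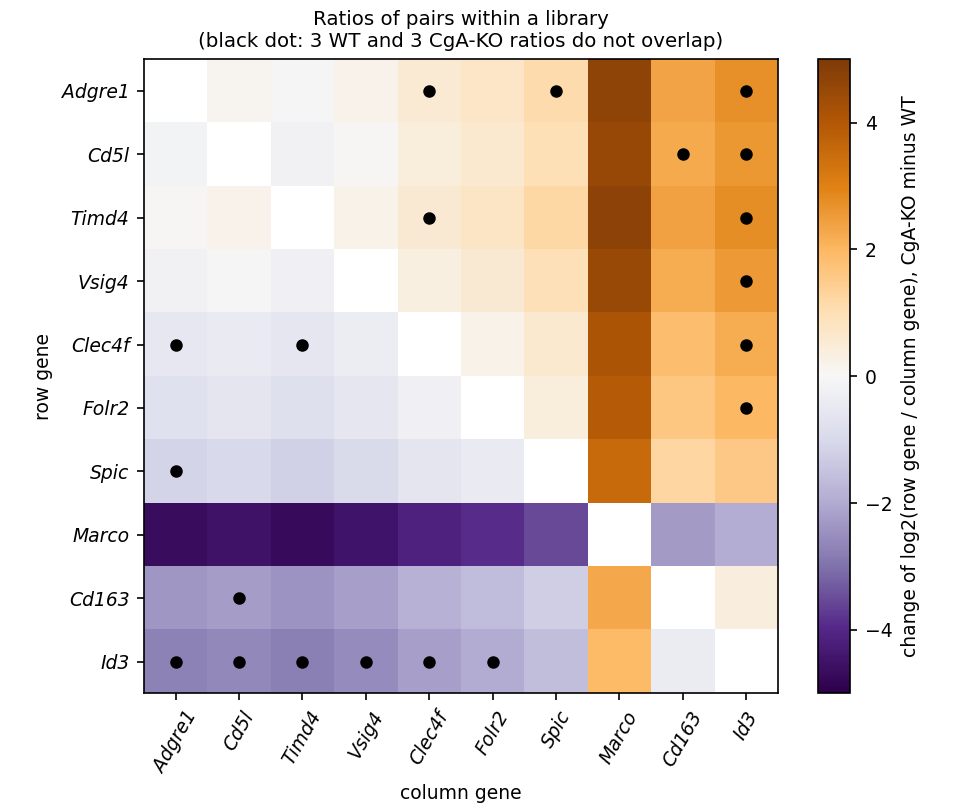
Change of the log2 ratio of each row gene to each column gene, CgA-KO minus WT, on a colour scale from -5 to 5. Black dots mark the 10 pairs whose 3 WT and 3 CgA-KO ratios do not overlap, and 6 of them lie in the row and column of Id3.

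The identity genes were also set against RNA of macrophages in general. The 13 pan-macrophage genes, such as the lysozyme gene Lyz2, Mpeg1 of the phagosomal pore protein perforin-2 and the CSF1 receptor gene Csf1r, summed to 456, 266 and 166 CPM in WT and 1906, 1586 and 1625 CPM in CgA-KO. Of these genes 12 rose and Mertk did not pass the test, with a median log2 fold change of 2.77. Lyz2, the most abundant of them, rose by less, 1.81 on the log2 scale (edgeR adjusted p = 0.0375). It held 1380, 2202 and 917 of the 5094, 6252 and 3916 pan-macrophage counts in WT. In CgA-KO it held 6428, 5163 and 9700 of 41057, 50028 and 36254. The effect of Lyz2 on the ratios below was not tested. Per 100 pan-macrophage counts, the 10 identity genes together had 44.4, 44.0 and 74.1 counts in WT and 67.8, 79.3 and 54.2 in CgA-KO, so the groups overlapped. In an edgeR fit that used the pan-macrophage sum as library size, 0 of the 10 genes were called higher, beside 0.447% of all genes, and 2 were called lower, beside 89.6%. Without adjustment, 0 genes were higher at a p-value under 0.05, and DESeq2 with the same scaling called 1, Adgre1. This scaling put the median over all genes at a log2 fold change of -2.77, so most genes were lower under it. Vsig4 had a log2 fold change of 0.83, Timd4 0.96, Cd5l 0.97 and Adgre1 0.97, with edgeR adjusted p-values of 0.137, 0.0806, 0.095 and 0.0798. Without WT replicate 1, 4 of the genes were called higher, and without WT replicate 3, 2 were. The share of all genes called higher was not computed for these fits.

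Within libraries, 4 of the 10 ratios to the pan-macrophage sum did not overlap between genotypes, a comparison added after the data were seen. Vsig4 had 5.38, 6.03 and 5.23 counts per 100 pan-macrophage counts in WT and 7.27, 9.34 and 13 in CgA-KO. Timd4 had 1.41, 0.672 and 1.58 in WT and 2.91, 1.98 and 2.21 in CgA-KO. Adgre1 had 1.47, 0.976 and 1.89 in WT and 3.60, 2.18 and 2.65 in CgA-KO. In these genes all CgA-KO ratios were above all WT ratios, which 0.288% of all genes tested showed. Against the geometric mean of the pan-macrophage genes, the ratios of Adgre1 overlapped.

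Id3 went the other way, with 3.71, 9.72 and 14.8 counts per 100 pan-macrophage counts in WT and 2.30, 2.62 and 2.32 in CgA-KO. All its CgA-KO ratios were below all WT ratios, as in 89.4% of all genes tested, so that Id3 was on the side of most genes. The exact permutation p-value was 0.1 for each of the 4 genes (0.25 after Benjamini-Hochberg adjustment over the 10). Id3 and Cd163 were the genes called lower in the fit, with log2 fold changes of -1.96 (edgeR adjusted p = 0.000505) and -1.88 (edgeR adjusted p = 0.000809). For Cd163 the value was -0.02 without WT replicate 3 (edgeR adjusted p = 0.981), and DESeq2 did not call it (adjusted p = 0.143). For Marco the value was -1.51 with all libraries (adjusted p = 0.595 by edgeR). Leaving out CgA-KO replicate 2 put it at -6.57, called lower (adjusted p = 3.25e-09 by edgeR). That library held 1810 Marco counts, against 3 and 24 in CgA-KO replicates 1 and 3, so its removal sets the direction. With all libraries, 89.6% of all genes were called lower under this scaling. Clec4f, Cd5l, Folr2 and Spic overlapped between genotypes in their ratios. For example, Folr2 had 1.47, 1.36 and 1.46 in WT and 1.15, 2.89 and 1.46 in CgA-KO.

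**Figure D4:**
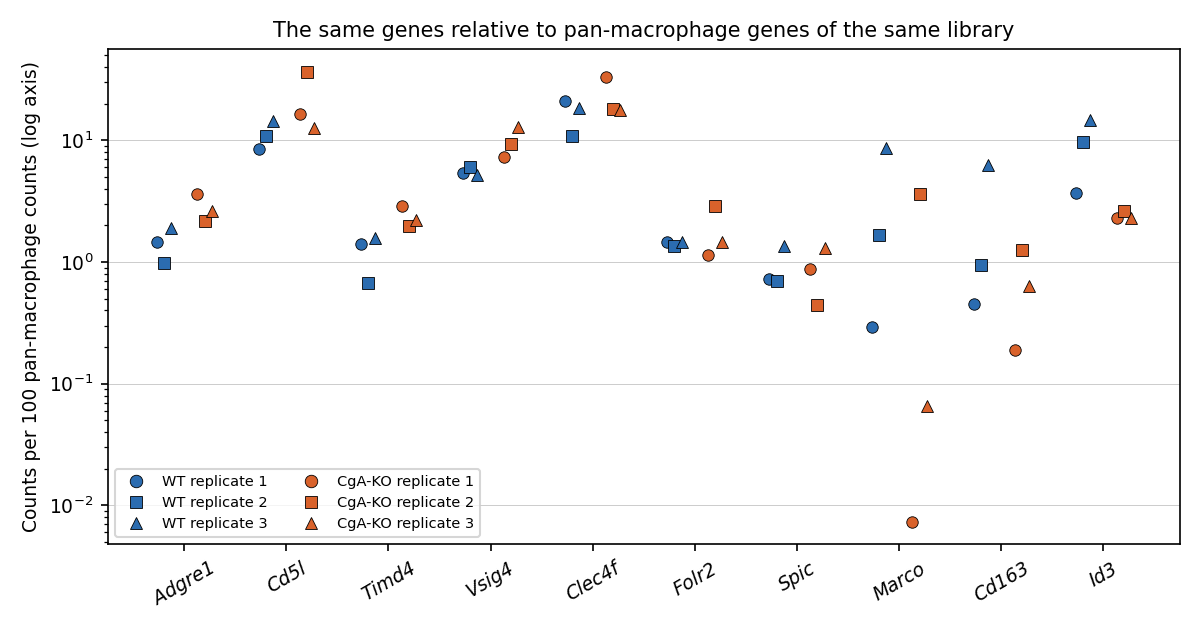
Counts of each identity gene per 100 counts of 13 pan-macrophage genes in the same library (log axis), for 3 WT (blue) and 3 CgA-KO (orange) libraries. Vsig4, Timd4 and Adgre1 are higher and Id3 is lower in all CgA-KO libraries, and the other genes overlap between genotypes.

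Other genes known from Kupffer cells moved in both directions. Of 15 such genes, 8 rose, 1 fell and 6 did not pass the test, with a median log2 fold change of 2.29. Clec1b, which encodes the lectin CLEC-2, was at 9.58, 6.47 and 6.61 CPM in WT and 65.3, 33.9 and 36.1 CPM in CgA-KO, with replicate 1 the highest in each genotype as for Timd4 and Adgre1. Clec1b rose by 2.59 on the log2 scale (standard error 0.303, adjusted p = 0.00355 by edgeR). Tmem26 had the largest rise of the 15, 3.96 on the log2 scale (edgeR adjusted p = 0.00282). Hmox1, the heme oxygenase gene, rose by 2.29, Fcna of the lectin ficolin A by 1.60, Vcam1 of the adhesion molecule by 2.42, Adrb1 of the beta-1 adrenergic receptor by 2.52, Slc16a9 by 2.24 and Il18bp of the IL-18 binding protein by 2.41, all as log2 fold changes.

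Sucnr1, the succinate receptor gene, fell by 1.04 on the log2 scale (edgeR adjusted p = 0.035), from 23.2, 42.0 and 29.8 CPM to 14.3, 19.6 and 12.3 CPM. The iron exporter gene Slc40a1 had a log2 fold change of 0.52, the complement gene C6 -0.16 and the LXR-alpha gene Nr1h3 -0.06, none of which passed the test. Slc1a3 of a glutamate transporter (2.85, edgeR adjusted p = 0.0825), Gfra2 of a GDNF family receptor (2.44, edgeR adjusted p = 0.103) and Pltp of the phospholipid transfer protein (0.84) did not pass either. Among the genes that did not pass, every CgA-KO library was above every WT library for Slc40a1 and Slc1a3, a pattern seen upward in 19.0% of all genes tested. Hepatocytes also express Slc40a1, C6 and Nr1h3, and these genes held 70.1% to 78.5% of the counts of the list in WT and 44.8% to 56.5% in CgA-KO. The summed level of all 15 genes was 552 to 621 CPM in WT and 788 to 1026 CPM in CgA-KO. Without WT replicate 2, 5 of the 15 genes were called higher, beside 469 of 14155 genes tested in that fit.

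Of 14 lineage factors, 3 rose and 2 fell. Spi1, the gene of PU.1, was at 7.25, 3.91 and 3.13 CPM in WT and 32.5, 42.8 and 26.4 CPM in CgA-KO, with no overlap, and rose by 2.86 on the log2 scale (standard error 0.337, adjusted p = 0.00355 by edgeR). Irf8, a partner of PU.1, rose by 1.95 and Zeb2, which maintains tissue macrophage identity, by 1.70 on the log2 scale. Tfec had a log2 fold change of 2.09 (adjusted p = 0.0549 by edgeR), Klf4 1.36, Maf 0.68 and Rbpj, the Notch effector gene, 0.55, and none of these passed. Bhlhe40 and Bhlhe41, which encode repressors that are also part of the clock, fell by 1.05 and 1.98 on the log2 scale (edgeR adjusted p = 0.0338 and 0.00778). Rxra, Smad4, Cebpb and Nr1h3 had log2 fold changes from -0.23 to -0.01, and none passed.

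Of 15 niche signals and receptors, 3 rose and none fell, while 7 were higher and 1 was lower at an unadjusted p-value under 0.05, and with DESeq2 or limma-voom 0 were called lower. Csf1r was at 61.5, 11.8 and 13.5 CPM in WT and 365, 190 and 114 CPM in CgA-KO, a log2 rise of 2.96 (standard error 0.691, adjusted p = 0.0264 by edgeR). Tgfb1 rose by 2.00 and Acvrl1, the gene of the BMP9 and BMP10 receptor ALK1, by 2.29 on the log2 scale. The ligand genes Gdf2 (BMP9), Bmp10 and Csf1 had log2 fold changes of 0.90, 0.87 and 0.61 with edgeR adjusted p-values of 0.0517, 0.0759 and 0.0933. The Notch ligand genes Dll1 (-0.78), Dll4 (-0.34) and Jag1 (-0.52) and the CSF1R ligand gene Il34 (0.71) did not pass the test either. Of 8 other ID and BMP target genes, 1 rose, the median log2 fold change being 0.36, and the abundant genes Hamp and Id2 had log2 fold changes of 0.09 and 0.59, and Smad9 one of -0.83.

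The genes of the ligand of Vsig4 and of other C3 receptors and regulators divided. Of 10 tested, 5 rose and 5 did not pass. C3 itself had 4782 ± 594 CPM in WT livers against 6674 ± 733 CPM in those of CgA-KO (SD, n = 3, log2 fold change 0.48, edgeR adjusted p = 0.286), and Cfb had a log2 fold change of -0.09. Of 12 heme and iron recycling genes, 2 rose, with a median log2 fold change of 0.14. The abundant genes Hpx (0.24), Ftl1 (-0.40) and Hp (0.04) did not pass.

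Some markers of other cells were also called higher in CgA-KO livers, in unequal shares of each list. Over all genes tested, 8.60% were called higher. Of 8 T and NK cell genes tested 6 rose (median log2 fold change 3.43, summed level 3.36 to 10.3 CPM in WT and 25.9 to 117 CPM in CgA-KO, the highest in CgA-KO replicate 2). Of 5 neutrophil genes tested 3 rose. Mpo was at 0 in all 3 WT libraries and in 1 of the 3 CgA-KO libraries. Of 8 monocyte genes 3 rose, with a median log2 fold change of 2.67. Of 10 stellate cell genes 5 rose, from a summed 202 to 261 CPM to 401 to 548 CPM. Of 7 dendritic cell genes tested 1 rose (summed level 7.83 to 17.9 CPM and 24.9 to 29.2 CPM). Of 7 lipid-associated macrophage genes 1 rose, with a median log2 fold change of 0.83. Of 4 peritoneal and splenic macrophage genes tested 1 rose, Treml4, while Gata6 of peritoneal macrophages had a log2 fold change of 0.0011. The part of these cells in the values of the identity genes was not tested.

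Sinusoidal endothelial genes, which belong to the cells that line the space where Kupffer cells sit, summed to 172 to 215 CPM in WT and 170 to 232 CPM in CgA-KO, and of 10 genes 1 rose and 1 fell. None of 10 hepatocyte genes was called by edgeR or limma-voom, where 1 was lower at an unadjusted p-value under 0.05, and DESeq2 called 1 lower. None of 6 B cell genes was called by edgeR, while 1 was higher at an unadjusted p-value under 0.05 and DESeq2 and limma-voom each called 1. None of 5 bile duct genes tested was called by edgeR, DESeq2 or limma-voom, and 1 was higher at an unadjusted p-value under 0.05. Of 4 erythroid genes tested 1 rose and 1 fell.

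**Figure D5:**
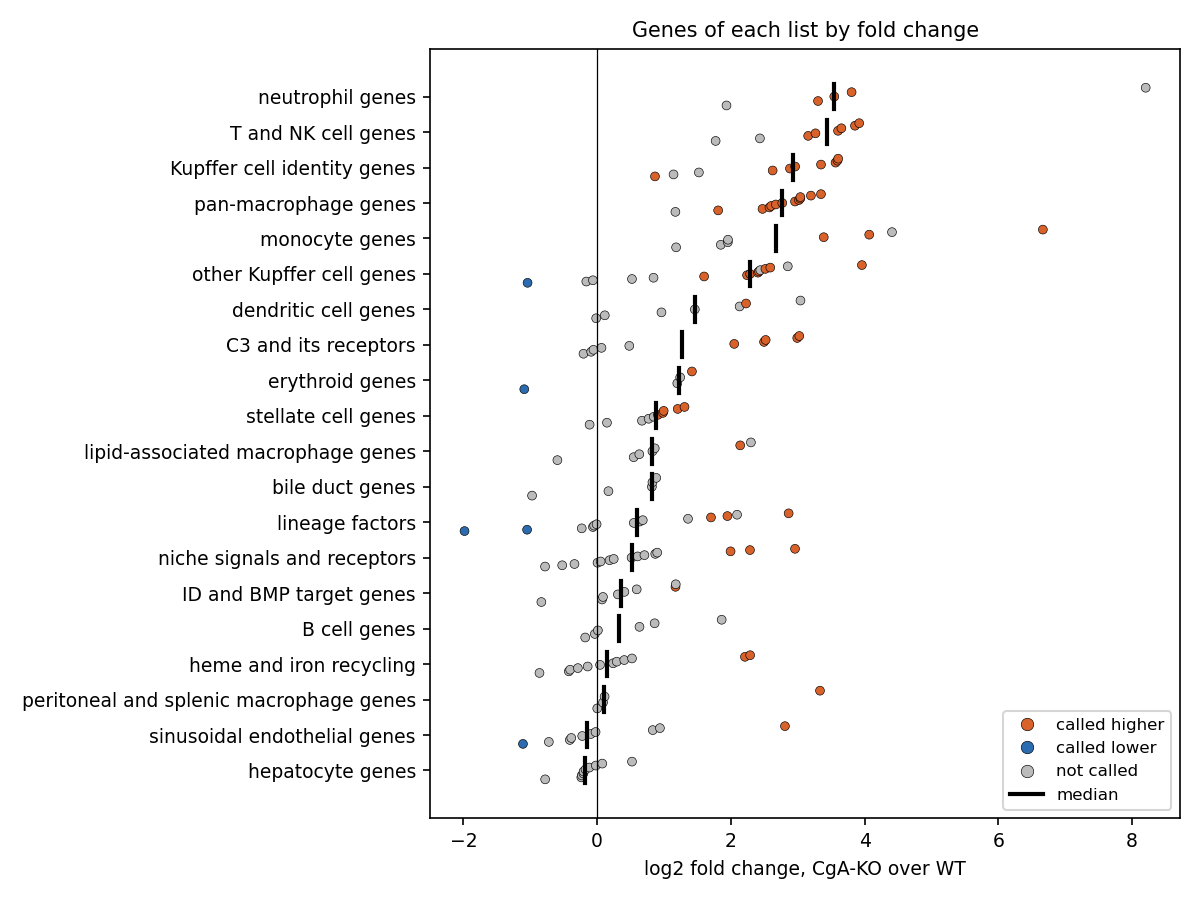
Log2 fold change (CgA-KO over WT) of each tested gene, by list, with lists in order of their median (black bar). Orange genes were called higher, blue genes lower and grey genes were not called; the median of the identity genes is 2.92 and that of hepatocyte genes -0.19, or 0.11 when library size alone was used.

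The identity genes followed each other unevenly over the 6 libraries, which share the genotype split. Pearson's r of log2 CPM with the mean of the other 9 genes was 0.98 for Cd5l, 0.96 for Folr2, 0.92 for Vsig4, 0.91 for Timd4 and 0.91 for Adgre1. It was 0.86 for Clec4f, 0.83 for Id3, 0.80 for Spic and 0.55 for Cd163, and -0.20 for Marco. Outside the 10 genes, BC005624, Bbs4, Tnfrsf21, Slc2a6 and Mtrex had the highest r with their mean, 0.995 to 0.999. Of these Tnfrsf21 (log2 fold change 1.87, edgeR adjusted p = 0.00673) and Slc2a6 (2.52, edgeR adjusted p = 0.00831) were called. After the genotype means were subtracted, Eml2, Cd8b1, Plk1, C7 and Kdm5b were nearest, with r from 0.99 to 1.00 over the same 6 libraries. Both sets were picked as the highest among all genes tested outside the 10. With so few libraries, values of r near 1 follow in part from that picking. The mean of the 10 genes includes Marco, which varied most between CgA-KO livers (standard deviation of log2 CPM 4.22).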

How the data were processed

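Poly(A) RNA was sequenced from 6 livers, 3 per genotype. The deposited values are counts that the authors obtained with Salmon 1.4.0 from transcripts of GRCm38, as whole numbers per gene symbol without scaling. How transcripts were summed to genes is not given in the sources used here. Libraries within a genotype differed beyond sampling noise (chi-square per degree of freedom 29.9 to 190), so each library was 1 sample. The study's methods name 3 WT and 3 CgA-KO mice, and the labels give a replicate number but no litter or batch.

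The analysis used edgeR 4.0.16 (R 4.3.3). Low genes were removed by filterByExpr (minimum count 10), and the rest were scaled by TMM and tested by the quasi-likelihood F test (robust, two-sided) with Benjamini-Hochberg adjustment over all genes and calls under 0.05. Standard errors are approximate, the log2 fold change over the root of its F statistic. Log2 CPM used a prior count of 2, except in the standard deviations of log2 CPM of single genes, where 0.05 CPM was added. Floors of 3 counts cover counting error only. Positions and exon lengths (the union of a gene's exons) are from GENCODE vM21 of GRCm38, and promoters from RefSeq. The 10 genes, the gene lists and the tests were chosen with earlier results of these data known. Genes named are all 10, all of the Kupffer, lineage factor and niche lists, the 3 most abundant of each other list, and the 5 most alike by each correlation. A few genes that this rule covers are not reported here. Mertk and Mpo were named after their values were seen. Some list genes did not pass the filter, and Hbb-bs had no row.

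Alternatives were DESeq2 1.42.0, limma-voom (limma 3.58.1), other scalings, filters and reference lists, a replicate block and leaving out libraries. The number of columns without a sample was 0. Same-numbered livers were not treated as pairs in the main fit, since the labels name no pairing. The test was tried on simulated data first. Figures were drawn with matplotlib 3.10.9. Raw reads were not analysed here.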

Additional observations from a re-analysis of the deposited data

How the results depend on the processing

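Of the 10 identity genes, 8 were called under every alternative with all 6 libraries, and 5 to 8 with 1 library left out. WT replicate 3 gave the lowest count. The median log2 fold change was 2.69 to 3.58 with 1 library left out. Of the other Kupffer cell genes, 8 were called higher, 7 to 9 under the alternatives and 5 to 10 with 1 library left out. Marco reversed from 1.52 to -0.89 with limma-voom, -0.86 with the replicate block and -3.89 without WT replicate 1 and CgA-KO replicate 2, and ran from -3.43 to 2.69 with 1 library left out. The cause was not tested.

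Against the pan-macrophage sum, 0 genes were called higher, but 1 with DESeq2, 7 with the other Kupffer cell genes as reference, and 0 to 4 with 1 library left out. The reference with hepatocyte-expressed C6, Slc40a1 and Nr1h3 turned the log2 fold change of Marco to 0.69, Cd163 to 0.43, Spic to 2.04 and Id3 to 0.23, and the sum of the 10 genes turned Folr2 to -0.0557. With 1 library left out the values ran from -6.57 (without CgA-KO replicate 2, edgeR adjusted p = 3.25e-09) to 0.31 for Marco, -0.13 to 0.61 for Folr2 and -0.48 to 0.30 for Spic. Pairs without overlap numbered 10, 9 to 10 with other pseudocounts and 11 to 29 with 1 library left out, and ratios to the pan-macrophage sum 4, 3 with the geometric mean and 4 to 5 with 1 library left out. With fewer libraries, overlap is less likely by construction.

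Same-numbered replicates deviated from their genotype means with correlations of 0.20, 0.01 and -0.07. With so few livers these values cannot decide whether same-numbered livers were paired, and the labels do not say. The replicate block left 8 identity genes and 7 other Kupffer cell genes called, and 0 against the pan-macrophage sum. Library size alone moved the median of all genes to 0.26, with 1293 called higher and 200 lower against 1193 and 533, and it turned the median of the hepatocyte genes to 0.11 and of the sinusoidal endothelial genes to 0.11. T and NK cell genes called numbered 6, and 2 to 6 under the alternatives with all libraries. Over all genes 1726 were called, against 394 to 2126 with 1 library left out and 2579 with DESeq2. Marco had 3 counts in CgA-KO replicate 1, the number taken as the lowest level that can be seen, and 3 livers per genotype limit each single-gene test.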
